A study of Mus musculus with 2 samples.

Results

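The genes described here are 10 receptor chains for cytokines and interferons, Il7r, Il2rb, Il21r, Il6ra, Il6st, Il10ra, Il27ra, Ifngr1, Ifnar1 and Ifnar2. They were taken by symbol from the 31053 genes of the count tables, and each symbol had 1 row. Their level was measured by single-cell RNA sequencing in cells of the mediastinal lymph nodes (MedLNs), which drain the lung. There were 2 droplet libraries, both from wild-type (WT) C57/B6J mice, which in this study were 5 to 13 weeks old. All mice were sensitised with 50 µg ovalbumin (OVA) in alum, challenged with OVA through the nose, and killed on day 17. The OVA library came from mice without a supplement and the butyrate library, labelled C4, from mice given butyrate, a short-chain fatty acid. The dose and route of butyrate for these libraries are not given in the sources used here. Each library pooled the cells of 4 mice and no unsensitised mice were analysed here, so a condition has 1 library and no difference between conditions could be tested.

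Most of these receptors belong to the families that signal through Janus kinases (JAKs) and the transcription factors called STATs. A receptor is built from several chains, some private to 1 cytokine and some shared: Il2rg, the common gamma chain, pairs with the products of Il7r, Il2rb and Il21r, and Il6st (gp130) pairs with those of Il6ra and Il27ra. Interferon gamma binds a receptor of Ifngr1 and Ifngr2, and the type I interferons bind one of Ifnar1 and Ifnar2. In lymph nodes interleukin 7 keeps naive T cells alive, interleukin 2 maintains regulatory T cells, and interleukins 6, 10, 21 and 27 and the interferons direct the differentiation of T and B cells.

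Levels are given as CPM: the unique molecular identifiers (UMIs) of a gene, summed over the cells of a class, per 1000000 UMIs of that class. A 95% interval in brackets is an exact Poisson interval for a level and the matching exact interval for a ratio. Where a class held 0 UMIs of a gene, the limit given is instead the level that 3 UMIs would have had there. Intervals and limits cover counting error only, not the spread between mice. After filtering, 8774 cells of the OVA library and 8013 of the butyrate library remained, with medians of 5075 and 5649 UMIs per cell, and 25 barcodes occurred in both libraries. Classes were made from UMIs of single genes: Cd79a for B cells (4129 and 3882 cells), Cd3e with Cd4 for CD4 T cells (1044 and 933), Cd3e with Cd8a for CD8 T cells (1608 and 1647), and further genes for subsets. The B, CD4 T and CD8 T cell classes were checked with genes that their gates did not use. The median B cell marker was found in 82.8% and 85.7% of B cells and in under 3% of CD4 or CD8 T cells. Cd8b1 was found in 97.9% and 98.1% of CD8 T cells. The CD4 T cell class had weaker support. The median of its markers, Cd40lg and Zbtb7b, was 21.65% and 22.24% of CD4 T cells, against 0.684% and 0.820% of CD8 T cells. The CD8 T cells of the butyrate library were the deeper ones, with a median of 7892 UMIs against 6783.5. Between 6.85% and 8.50% of cells fell in no class. Of 3836 and 3508 T cells, 1184 and 928 fell in neither the CD4 nor the CD8 T cell class.

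The 10 genes lie on 8 mouse chromosomes (build GRCm38). Il7r (15:9505788-9530176) and Il2rb (15:78479256-78495271) share chromosome 15, both on the minus strand, and Ifnar2 (16:91372783-91405589) and Ifnar1 (16:91485238-91507441) lie near each other on chromosome 16. Ifngr1 (10:19591949-19610229), Il6st (13:112464070-112510086), Il21r (7:125603429-125633570), Il6ra (3:89864059-89913196), Il10ra (9:45253837-45269149) and Il27ra (8:84030294-84042589) each lie alone. The annotation has a gene on the same strand, Gm21970, that reaches an exon of Ifnar2. A read that fits both is given to neither by Cell Ranger, so the level of Ifnar2 is uncertain to that extent. Il27ra is reached by Palm3 and Il6ra by Gm42809, both on the opposite strand.

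Il7r and Ifngr1 were the receptors with the lowest butyrate-to-OVA ratios among those tested in CD4 and in CD8 T cells, and the sequence upstream of their start sites is shown for that reason. It is RefSeq sequence of build GRCm38.p6, 5′ to 3′ on the strand of the gene. That of Il7r covers the 164 bases before the RefSeq start (chr15:9529877-9530040, minus strand), since bases further upstream fall in an exon of a longer annotated transcript. That of Ifngr1 covers 250 bases (chr10:19591699-19591948, plus strand). Capitals mark matches to TTCNNNGAA, the letters of a gamma-activated site (GAS), to which STAT dimers bind.
Il7r: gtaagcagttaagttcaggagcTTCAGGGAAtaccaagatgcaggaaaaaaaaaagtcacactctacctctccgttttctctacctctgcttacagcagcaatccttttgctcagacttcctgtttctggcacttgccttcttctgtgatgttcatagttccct
Ifngr1: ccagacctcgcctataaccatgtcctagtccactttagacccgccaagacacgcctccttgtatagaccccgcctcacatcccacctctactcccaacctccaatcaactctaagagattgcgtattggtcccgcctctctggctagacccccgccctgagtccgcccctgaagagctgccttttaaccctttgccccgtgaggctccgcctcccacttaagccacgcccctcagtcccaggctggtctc
The Il7r stretch has 43.9% G or C and holds 1 match, which begins 142 bases before the start, whereas the Ifngr1 stretch has 59.2% G or C and no match. RefSeq promoter windows of 300 bases were at hand for 7 of the 10 genes (not Il2rb, Il10ra and Il27ra). TTCNNNGAA, searched on both strands, occurred in 3 of these 7 windows, those of Il7r, Ifnar1 and Ifnar2, and in 8.3% of all 32851 windows. An interferon-stimulated response element (ISRE), searched on both strands as GAAA, any 2 bases and GAAA again, which can overlap the former, occurred in 0 of the 7 and in 3.44% of all windows. A match of letters is a description of the sequence and not a binding site.

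Of the receptors that use the common gamma chain, Il7r and Il2rb divided T cell classes from each other. Il7r, the interleukin 7 receptor, was a T cell gene: B cells had 3.88 CPM (3.11 to 4.79) in the OVA library and 4.20 (3.38 to 5.17) in the butyrate library, against 508.5 and 405.1 in CD4 T cells and 598.4 and 462.3 in CD8 T cells. Among classes that share no cell and held at least 50 cells in each library, it was highest in Trdc+ T cells, which carry a gamma delta T cell receptor transcript. These had 841.7 CPM (763.1 to 926.2) and 840.5 CPM (758.4 to 929.1), above naive-type CD8 T cells at 617.0 and 440.9 beyond the intervals in both libraries. Naive-type CD8 T cells, Cxcr3+ CD8 T cells (558.3 and 498.9) and naive-type CD4 T cells (593.3 and 440.1) did not keep a fixed order. Foxp3+ CD4 T cells, the regulatory T cells, had 198.1 and 189.1 CPM, below those and above B cells.

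The lowest Il7r of any T cell class was that of CD4 T cells with UMIs of both Cxcr5 and Pdcd1, a pair that marks follicular helper T cells. These were only 19 and 20 cells and held 3 Il7r UMIs in the OVA library and 8 in the butyrate library. Their level of 15.2 CPM was below that of naive-type CD4 T cells by a log2 ratio of -5.29 (-7.57 to -3.74) in the OVA library, and 31.0 CPM was below by -3.83 (-5.04 to -2.85) in the butyrate library. Droplets also pick up free RNA, which gives UMIs in cells that do not express a gene. With every cell thinned to 2000 UMIs, an Il7r UMI was found in 0.807% and 0.569% of B cells and in 62.9% and 49.3% of CD8 T cells (1.79% and 1.47%, and 88.3% and 82.0%, unthinned), with medians of 4400 and 4608 UMIs per B cell. A single B cell of the butyrate library held 24.4% of the Il7r UMIs of its class.

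Il2rb, the beta chain shared by the interleukin 2 and 15 receptors, followed another order. It was highest in Ncr1+ cells, the natural killer (NK) cells, with 650.9 CPM (481.5 to 860.5) in 15 cells and 724.0 (617.8 to 843.3) in 30 cells. Foxp3+ CD4 T cells had 220.0 and 278.0 CPM, Trdc+ T cells 162.3 and 245.8, and Cxcr3+ CD8 T cells 209.5 and 190.0, with overlapping intervals between neighbours in at least 1 library. Naive-type CD8 T cells followed with 73.8 and 62.6 CPM and naive-type CD4 T cells with 22.1 and 19.0, each step beyond the intervals in both libraries. The Cxcr5+Pdcd1+ cells, so low in Il7r, had 146.7 and 147.3 CPM of Il2rb. In Lyz2+ myeloid cells no Il2rb UMI was found in 37 and 32 cells, which allows up to 9.39 and 7.65 CPM.

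Il21r, whose ligand comes from helper T cells, did not separate the lineages. B cells had 111.7 CPM (107.4 to 116.2) and 126.4 (121.7 to 131.2), CD4 T cells 108.9 and 104.2, and CD8 T cells 99.0 and 101.6. Within B cells it was lower in the cycling Mki67+ cells, at 55.6 and 81.3 CPM, than in Ighd+ resting cells, at 119.6 and 130.0, with log2 ratios of -1.11 (-1.38 to -0.84) and -0.68 (-1.03 to -0.35). That drop was not particular to Il21r. Il2rg was lower there by -1.61 and -1.34 and Ifngr2 by -1.64 and -1.34, whereas Il2rb, Il6ra and Il6st had ratios above 0 in both libraries. The cycling cells had medians of 16303.5 and 10141 UMIs against 4364 and 4593. They also had more RNA of plasma cell genes, as given below for Il27ra, and the part of either was not tested. NK cells held 0 Il21r UMIs in the OVA library, which allows up to 39.9 CPM, and 5 UMIs (21.9 CPM) in the butyrate library.

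**Figure D1:**
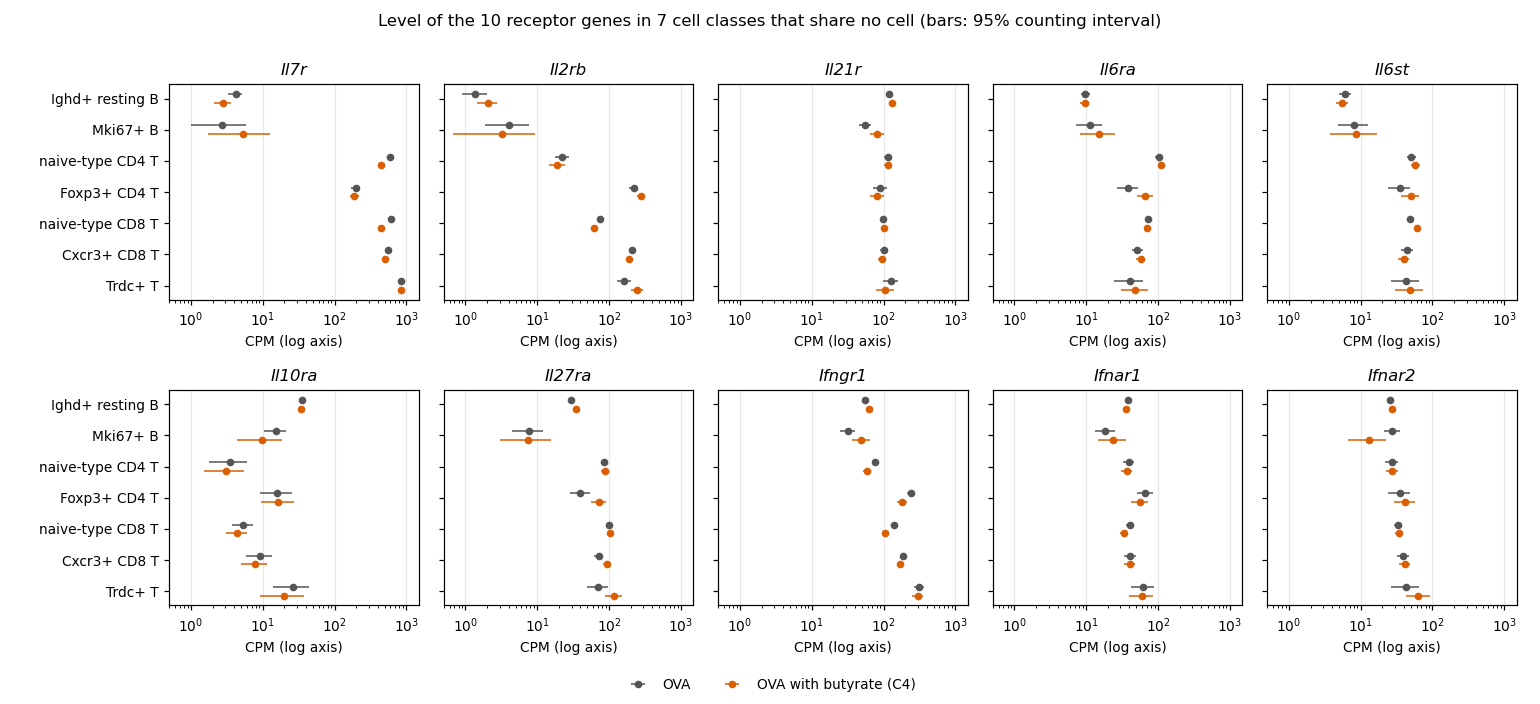
Level of each receptor gene (CPM, log axis) in 7 classes that share no cell, as points with 95% counting intervals, grey for the OVA and orange for the butyrate library. Il7r and Il2rb span over 100-fold between resting B cells and the highest T cell class, Il10ra is highest in resting B cells, and Ifnar1 and Ifnar2 stay between 12.8 and 66.7 CPM.

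Of the gp130 family, Il6ra, Il6st and Il27ra were found in T cells more than in B cells. Among classes of at least 50 cells that share no cell, Il6ra, the interleukin 6 binding chain, was highest in naive-type CD4 T cells. They had 101.6 CPM (91.3 to 112.8) and 109.2 (98.7 to 120.5), above naive-type CD8 T cells at 72.4 and 71.1 beyond the intervals in both libraries. The 19 and 20 Cxcr5+Pdcd1+ CD4 T cells had 121.4 and 182.2 CPM. Their log2 ratios over naive-type CD4 T cells were 0.26 (-0.40 to 0.85) and 0.74 (0.27 to 1.18). Foxp3+ CD4 T cells had 37.8 and 66.2 CPM and B cells 9.99 in each library. Lyz2+ myeloid cells had levels like those of naive CD4 T cells, 112.6 CPM (78.9 to 155.9) and 96.9 (68.5 to 132.9). Its signalling partner Il6st had 51.4 and 56.4 CPM in CD4 T cells, 47.5 and 55.3 in CD8 T cells, and 6.51 and 5.88 in B cells. Among T cell classes of at least 50 cells Il6st ranged from 34.8 to 60.5 CPM, and no class stood apart from the next in both libraries.

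Il27ra, the private chain of the interleukin 27 receptor, had 91.6 and 100.5 CPM in CD8 T cells, 74.9 and 85.7 in CD4 T cells, and 26.3 and 32.8 in B cells. Within B cells it had the largest ratio between cycling and resting cells of the 10 in both libraries. Mki67+ B cells had 7.62 and 7.49 CPM against 29.4 and 34.3 in Ighd+ resting B cells, with log2 ratios of -1.94 (-2.73 to -1.25) and -2.20 (-3.52 to -1.15). The cycling cells were also deeper, with medians of 16303.5 and 10141 UMIs against 4364 and 4593, and the part of depth in the result was not tested. In plasma cells, gated on Jchain with Sdc1 or Tnfrsf17, no Il27ra UMI was found in 38 and 11 cells, which allows up to 2.99 and 8.01 CPM.

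Il10ra, the binding chain for interleukin 10, was alone among the 10 in being over 2-fold higher in B than in CD4 T cells in both libraries. B cells had 32.8 CPM (30.5 to 35.2) and 32.7 (30.3 to 35.2), CD4 T cells 5.93 and 6.83, and CD8 T cells 6.32 and 5.06. Like Il27ra it was lower in Mki67+ B cells (15.3 and 9.63 CPM) than in resting B cells (35.4 and 34.4), and it too had 0 UMIs in plasma cells. Both differences carry the limits given for Il27ra. Small classes outside the B lineage had 146.1 and 105.3 CPM in NK cells and 112.6 and 51.0 in Lyz2+ myeloid cells. Between T cell classes the levels rest on few UMIs, 16 in each library for Foxp3+ CD4 T cells.

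The interferon gamma receptor was graded across lymphocytes and the type I receptor varied less. Ifngr1 was highest in NK cells, at 757.1 CPM (573.4 to 981.0) and 390.5 (313.6 to 480.6), and then in Trdc+ T cells, at 312.6 and 300.7. Foxp3+ CD4 T cells followed with 241.9 and 181.9 CPM, Cxcr3+ CD8 T cells with 185.2 and 170.8, naive-type CD8 T cells with 139.1 and 104.7, and naive-type CD4 T cells with 77.2 and 59.0. The steps from Cxcr3+ to naive-type CD8 T cells and from these to naive-type CD4 T cells were beyond the intervals in both libraries. B cells had 52.8 and 61.1 CPM and Lyz2+ myeloid cells 225.3 and 282.9. Its partner Ifngr2 ran the other way, with 76.8 and 81.3 CPM in B cells, 39.1 and 42.3 in CD4 T cells, and 22.6 and 23.3 in CD8 T cells.

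Ifnar1 had 36.6 and 35.3 CPM in B cells, 46.9 and 41.9 in CD4 T cells, and 39.8 and 34.9 in CD8 T cells, and Ifnar2 had 26.1 and 25.9, 33.5 and 30.0, and 34.0 and 36.7. For neither gene did any class of at least 50 cells stand beyond the intervals from the next one in both libraries. The Siglech+ cells, which carry a plasmacytoid dendritic cell gene, were 7 and 12 cells. They held 3 Ifnar2 UMIs (43.9 CPM, 9.05 to 128.2) in the OVA library and 35 (300.4 CPM, 209.3 to 417.8) in the butyrate library, found in 11 of the 12 cells.

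Compared as classes, with a call where a gene was past 2-fold in the same direction in both libraries, 5 of the 10 receptors were higher in CD4 T than in B cells. These were Il7r, with log2 ratios of 7.03 and 6.59, Il2rb (5.32 and 5.21), Il6ra (3.16 and 3.37), Il6st (2.98 and 3.26) and Il27ra (1.51 and 1.39). Of all 7011 genes with a mean of at least 10 CPM, 7.17% were called in that direction. Il7r, Il2rb, Il6ra and Il6st were under 10 CPM in B cells and reached that mean only through CD4 T cells. Il10ra was lower in CD4 T than in B cells by log2 ratios of -2.47 and -2.26, as were 7.4% of all genes. It was under 10 CPM in CD4 T cells and reached the mean only through B cells. Ifngr1 passed 2-fold in the OVA library alone, with 1.02 (0.88 to 1.15) against 0.46 (0.31 to 0.60) in the butyrate library.

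No receptor was past 2-fold between CD8 and CD4 T cells among the 9 at 10 CPM, where 0.911% of 6693 genes were higher and 2.64% lower in CD8 T cells. The largest ratios there were those of Il2rb, 0.74 and 0.34, Ifngr1, 0.48 and 0.53, and Il6ra, -0.45 and -0.62.

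Foxp3+ and Foxp3- CD4 T cells differed in more of the receptors. Il2rb was higher in Foxp3+ cells by log2 ratios of 2.70 (2.42 to 2.99) and 2.75 (2.49 to 3.01), Il10ra by 1.95 (0.93 to 2.93) and 1.68 (0.70 to 2.61), and Ifngr1 by 1.55 (1.32 to 1.78) and 1.44 (1.17 to 1.70). These were 3 of the 10 receptors, and 8.4% of 7015 genes were called likewise. Il10ra had 4.131 and 5.155 CPM in Foxp3- cells, so it reached the mean of 10 CPM only through Foxp3+ cells. Il7r was the only receptor called lower, by -1.51 (-1.725 to -1.304) and -1.23 (-1.45 to -1.01), as were 1.87% of all genes. Thinned to 2000 UMIs per cell it was no longer called, and under stricter gates 2 receptors were. Il6ra was lower by -1.39 in the OVA and -0.73 in the butyrate library, and Il27ra by -1.03 and -0.28. The marker list of regulatory T cells was found with a median of 70.5% and 65.9% of Foxp3+ cells against 10.3% and 9.14% of Foxp3- cells. That median was also 65.8% and 60% in Cxcr5+Pdcd1+ and 58.6% and 41.7% in S100a4+ CD4 T cells. Naive-type cells were 607 of 949 and 555 of 848 Foxp3- cells. S100a4+ cells differed from naive-type CD4 T cells in the same directions: Il2rb by 2.14 and 2.65, Il10ra by 1.98 and 2.79, Ifngr1 by 0.45 (-0.07 to 0.94) and 1.48, Il7r by -1.92 and -0.42. In Cxcr5+Pdcd1+ cells Ifngr1 was lower instead. The directions were thus shared with S100a4+ cells, but the levels were not all alike. Foxp3+ cells had 220.0 and 278.0 CPM of Il2rb against 97.6 and 119.3 in S100a4+ cells. For Ifngr1 the levels were 241.9 and 181.9 against 105.8 and 164.9 CPM. Il10ra and Il7r were higher in Foxp3+ than in S100a4+ cells in the OVA library and lower in the butyrate library.

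Between the libraries most receptors differed little, and none of those at 10 CPM was past 1.3-fold in B, CD4 T or CD8 T cells. The counts were 0 of 6 receptors in B cells, where 1.91% of 6808 genes were lower and 1.22% higher with butyrate. They were 0 of 9 in CD4 T cells (3.73% of 6858 genes lower, 2.87% higher) and 0 of 9 in CD8 T cells (2.26% of 6472 genes lower, 1.02% higher). The median log2 ratio of the receptors was 0.09 in B cells, -0.06 in CD4 T cells and 0.04 in CD8 T cells, against 0.05, 0.00 and -0.01 for all genes tested.

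The receptor nearest that line was Il7r, which was lower in T cells of the butyrate library. Its log2 ratio was -0.37 (-0.42 to -0.32) in CD8 T cells and -0.33 (-0.40 to -0.25) in CD4 T cells, where the 1.3-fold line lies at 0.379. Of all genes tested, 2.41% in CD8 T cells and 5.28% in CD4 T cells had a lower ratio. Leaving out other T cells made the difference larger: naive-type CD8 T cells had -0.48 (-0.55 to -0.42) and naive-type CD4 T cells -0.43 (-0.53 to -0.34), both past 1.3-fold. With stricter gates, at least 2 UMIs of each defining gene, the ratio was -0.33 in CD8 T cells and -0.01 in CD4 T cells. Cxcr3+ CD8 T cells differed less, by -0.16 (-0.26 to -0.06), and Trdc+ T cells, at -0.00 (-0.21 to 0.20), and Foxp3+ CD4 T cells, at -0.07 (-0.36 to 0.23), had ratios near 0. In the 29 and 24 S100a4+ CD4 T cells Il7r was higher with butyrate, at 157.3 against 329.7 CPM and a log2 ratio of 1.07 (0.58 to 1.57). There 1 cell held 34.5% of the Il7r UMIs in the OVA library and 1 cell 20.2% in the butyrate library. An Il7r UMI was found in 58.6% and 66.7% of these cells, so the interval is too narrow.

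**Figure D2:**
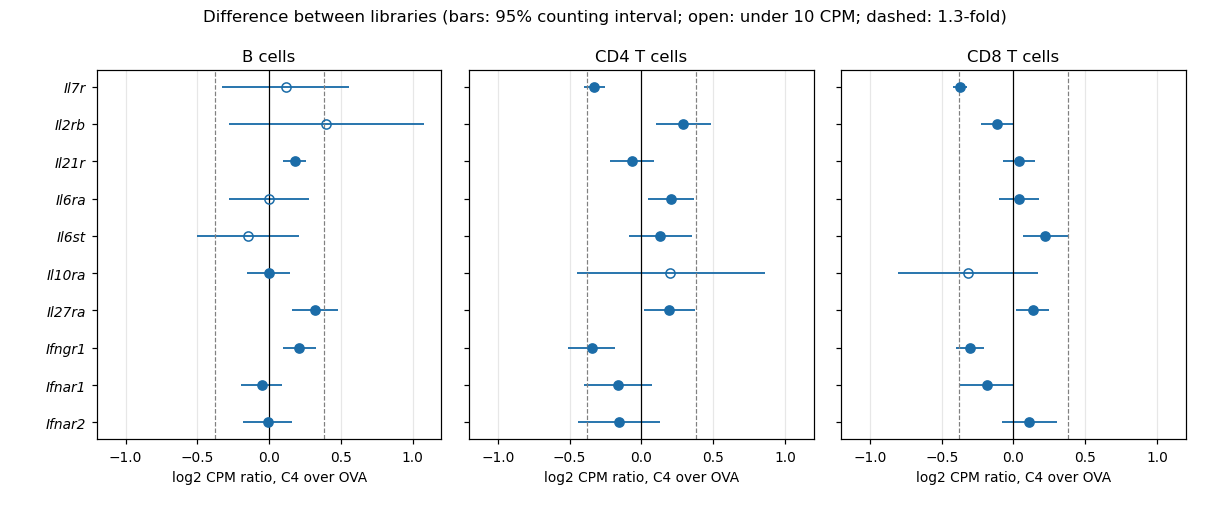
Log2 ratio of CPM, butyrate (C4) over OVA library, of each receptor in B, CD4 T and CD8 T cells, with 95% counting intervals. Open points are genes with a mean under 10 CPM and dashed lines mark 1.3-fold. Il7r and Ifngr1 lie left of 0 in both T cell classes, with intervals that leave out 0.

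Ifngr1 moved beside Il7r in T cells and the other way in B cells. It was lower with butyrate in CD4 T cells by a log2 ratio of -0.35 (-0.51 to -0.18) and in CD8 T cells by -0.30 (-0.40 to -0.21), and higher in B cells by 0.21 (0.10 to 0.33). Naive-type CD8 T cells had -0.41 (-0.54 to -0.28), naive-type CD4 T cells -0.39 (-0.65 to -0.12) and Foxp3+ CD4 T cells -0.41 (-0.70 to -0.13), whereas Trdc+ T cells had -0.06 (-0.40 to 0.28). In NK cells the ratio was -0.96 (-1.45 to -0.45), from 57 and 89 UMIs.

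Il27ra was higher with butyrate in all of the main classes, by 0.32 (0.16 to 0.48) in B cells, 0.19 (0.02 to 0.37) in CD4 T cells and 0.13 (0.02 to 0.25) in CD8 T cells. In B cells 97.5% of all genes tested had a lower ratio, and in Ighd+ resting B cells alone the ratio of Il27ra was 0.23 (0.06 to 0.39). In naive-type CD4 and CD8 T cells the ratios were 0.03 (-0.21 to 0.26) and 0.05 (-0.09 to 0.19). Foxp3+ CD4 T cells had 39.8 and 72.4 CPM, a ratio of 0.86 (0.28 to 1.46), and Il6ra in the same cells 0.81 (0.21 to 1.43). These rest on 40 and 70 UMIs of Il27ra and 38 and 64 of Il6ra. Thinned to 2000 UMIs, 90.5% and 88.1% of the cells had no Il27ra UMI, and 2.11% and 0% had 2. The Il27ra difference was thus small at equal depth. No Il6ra UMI was found in 92.6% and 77.4% of the thinned cells.

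Il2rb was higher with butyrate in CD4 T cells, by 0.29 (0.10 to 0.48), with like ratios in Foxp3+ (0.34) and Foxp3- cells (0.29). It was lower in CD8 T cells by -0.11 (-0.22 to -0.00) and in naive-type CD8 T cells by -0.24 (-0.41 to -0.06). In naive-type CD4 T cells the ratio was -0.22 (-0.71 to 0.27). Il21r was higher in B cells by 0.18 (0.10 to 0.26), Il6ra in CD4 T cells by 0.21 (0.05 to 0.37) and Il6st in CD8 T cells by 0.22 (0.06 to 0.38). Ifnar1 was lower in CD8 T cells by -0.19 (-0.37 to -0.00), and no interval of Ifnar2 or Il10ra in the main classes left out 0. The difference in Il10ra in myeloid cells, 112.6 against 51.0 CPM, rested on 36 and 20 UMIs.

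**Figure D3:**
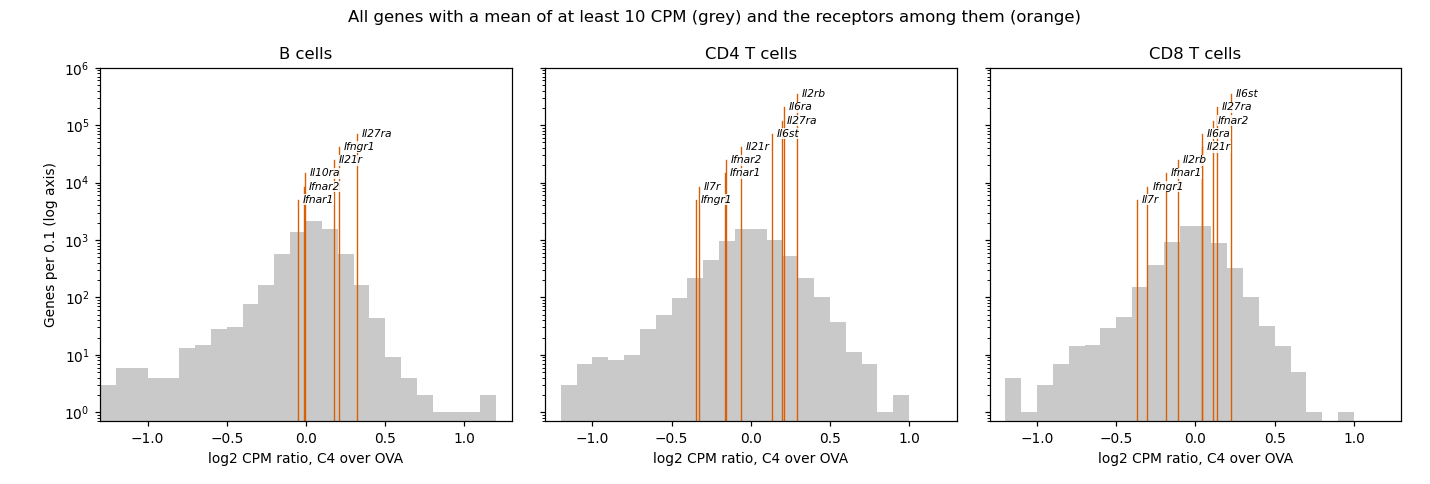
Distribution of the log2 CPM ratio, butyrate (C4) over OVA library, for all genes with a mean of at least 10 CPM in B, CD4 T and CD8 T cells (grey, genes per 0.1 on a log axis), with the receptors among them as orange lines whose height only spaces the names. Genes past 1.3 on the log2 scale are outside the axis. The receptors lie inside the body of the distribution, with Il7r and Ifngr1 toward its left side in T cells.

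The Il7r difference was spread over many cells of the class. With every cell thinned to 2000 UMIs, 37.8% of naive-type CD8 T cells of the OVA library and 53.5% of those of the butyrate library had no Il7r UMI, and 15.8% and 9.65% had 3 or more. In naive-type CD4 T cells 44.6% and 48.2% had none, and 17.7% and 10.7% had 3 or more. The cell with the most Il7r UMIs held 0.333% and 0.432% of those of CD8 T cells. For Ifngr1 the share of naive-type CD8 T cells with at least 1 UMI was 24.6% (22.0 to 27.3) and 18.5% (16.2 to 20.9).

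**Figure D4:**
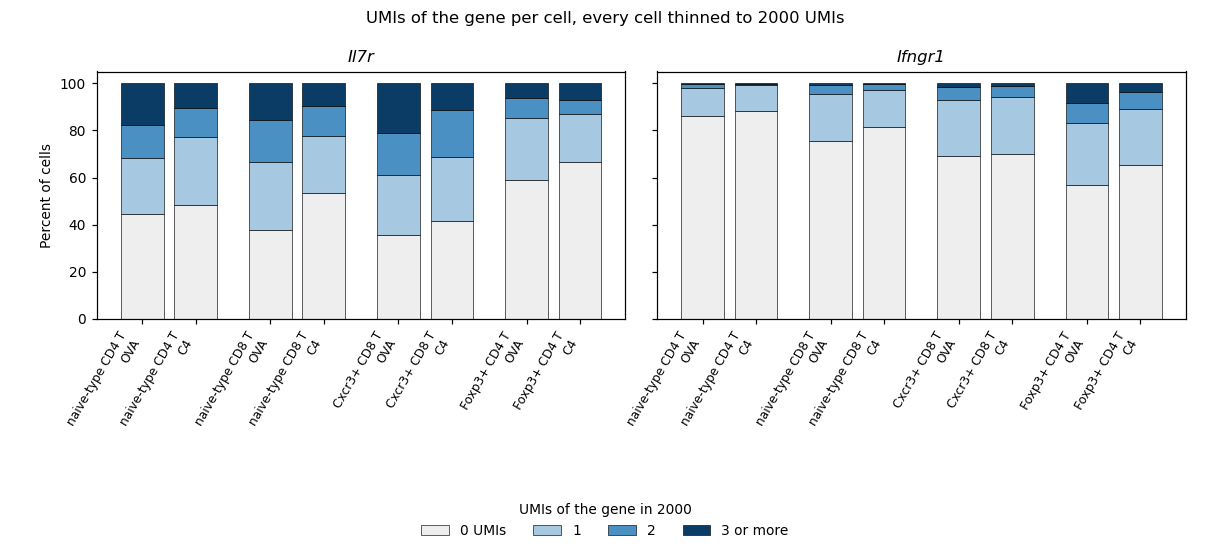
Stacked percent of cells with 0, 1, 2 and 3 or more UMIs of Il7r (left) and Ifngr1 (right) in 4 T cell classes of the OVA and butyrate (C4) library, each cell thinned to 2000 UMIs. The segment of cells without an Il7r UMI is taller with butyrate in all 4 classes, most in naive-type CD8 T cells (37.8% against 53.5%).

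Since the butyrate library was deeper, Il7r was also compared among cells of like depth, a comparison chosen after the data were seen. Naive-type CD8 T cells with under 5000 UMIs had 702.2 and 274.6 CPM, those with 5000 to 8000 UMIs 636.5 and 447.8, and those with over 8000 UMIs 557.6 and 442.9. The log2 ratios were -1.35 (-1.76 to -0.97), -0.51 (-0.59 to -0.42) and -0.33 (-0.43 to -0.23). In naive-type CD4 T cells they were -0.64 (-0.88 to -0.42), -0.38 (-0.51 to -0.26) and -0.09 (-0.34 to 0.17). So the ratio was lower than 0 in each band and nearer to 0 in deeper cells. Ifngr1 was lower with butyrate in all 6 bands as well, from -0.13 to -0.70, with intervals that left out 0 in 3 of them.

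Genes of the same pathways were read beside the receptors. Of 18 partner chains, 7 reached 10 CPM in B cells, 6 in CD4 T cells and 5 in CD8 T cells. In B cells 2 of them were past 1.3-fold, both higher with butyrate, as were 1.22% of all genes tested. Lifr, the leukaemia inhibitory factor receptor that pairs with gp130, had 15.8 and 30.1 CPM (log2 ratio 0.93, 0.74 to 1.12), and Il4ra, the interleukin 4 receptor, 65.2 and 85.3 (0.39, 0.29 to 0.49). Lifr had 1 and 4 UMIs in CD4 T cells (0.152 and 0.607 CPM) and 2 and 4 in CD8 T cells (0.166 and 0.285 CPM). In T cells none of the partner chains at 10 CPM was past 1.3-fold. Il2rg had 270.4 and 253.0 CPM in CD4 T cells and 245.0 and 239.8 in CD8 T cells, and Il2ra, the alpha chain of the interleukin 2 receptor, 173.2 and 207.7 in Foxp3+ cells. None of the 4 JAK genes was past 1.3-fold in any of these classes. Jak1, the kinase most of these receptors share, had 397.0 and 402.1 CPM in CD4 T cells.

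Of the STAT genes, Stat2, which acts downstream of type I interferon, was lower with butyrate in T cells past 1.3-fold. It had 22.4 and 13.4 CPM in CD4 T cells (-0.74, -1.14 to -0.35) and 22.7 and 12.4 in CD8 T cells (-0.87, -1.15 to -0.59). Of the 16 inhibitors, Usp18, which binds Ifnar2 and dampens type I signalling, was lower in all of the main classes, by -1.02 in CD4 T, -0.87 in CD8 T and -0.66 in B cells. Socs3, an inhibitor of gp130 signalling, was higher, with 42.5 and 60.3 CPM in B cells (0.51, 0.38 to 0.63) and 52.8 and 69.3 in CD4 T cells (0.39, 0.19 to 0.60). Pias2 and Pias4 passed the line in CD4 T cells in opposite directions, at -0.44 (-0.81 to -0.06) and 0.40 (0.02 to 0.78).

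The ligands were scarce. Of 18, only Clcf1, a ligand that signals through gp130, reached 10 CPM in these classes, with 9.59 and 13.5 in CD4 T cells (0.49, 0.01 to 0.98). Ifnb1, Ifna2, Ifna4 and Ifna5 had 0 UMIs in both libraries, which allows up to 0.0571 and 0.0574 CPM over all cells, and Il7 had 0.0761 and 0.0957 CPM. Ifng, the ligand of Ifngr1, had 2.95 and 13.1 CPM over all cells, and 1 cell held 64.5% of its UMIs in the butyrate library, so these levels are not compared. In CD8 T cells it had 6.398 and 8.558 CPM.

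A list of 18 interferon-response genes was lower with butyrate. In CD4 T cells 13 of the 14 at 10 CPM were past 1.3-fold, with a median log2 ratio of -0.99, in CD8 T cells 13 of 14 (-0.79) and in B cells 10 of 12 (-0.69). Of all genes tested, 3.73% in CD4 T, 2.26% in CD8 T and 1.91% in B cells were lower past that fold. The lower level of the list was known from earlier results of these data, and Usp18 stands in this list and among the inhibitors. The summed level of the list was 1171 and 613.2 CPM in CD4 T cells and 1241 and 702.9 in CD8 T cells. Ifnar1 and Ifnar2 in the same cells had log2 ratios from -0.19 to 0.11.

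Because Il7r, Ifngr1 and the interferon list were lower together, the receptors were read in cells with few and with many UMIs of that list, a choice made after the data were seen. Thinned to 2000 UMIs, 48.8% of naive-type CD8 T cells of the OVA library and 69.4% of the butyrate library had 0 to 1 UMIs of the list. Among these cells Il7r had 589.3 and 427.3 CPM, a log2 ratio of -0.46 (-0.62 to -0.30), and Ifngr1 148.8 and 109.1, a ratio of -0.45 (-0.77 to -0.12). With 2 to 4 UMIs of the list the ratio of Il7r was -0.75 (-0.99 to -0.51), and with 5 or more it was -0.57 (-0.97 to -0.18). In naive-type CD4 T cells the ratios of Il7r were -0.47 (-0.67 to -0.26), -0.30 (-0.63 to 0.02) and -1.01 (-1.90 to -0.22). Over all naive-type cells, unthinned, they were -0.48 in CD8 and -0.43 in CD4 T cells. In the highest band of naive-type CD4 T cells Il7r rested on 108 and 15 UMIs. Ifngr1 rested on 11 and 5 UMIs there and had a ratio of 0.70 (-1.18 to 2.34). With so few list UMIs per cell, counting error moves cells between bands, so a band does not make the interferon response of the libraries equal. Whether the Il7r difference is separate from that of the list was not tested.

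**Figure D5:**
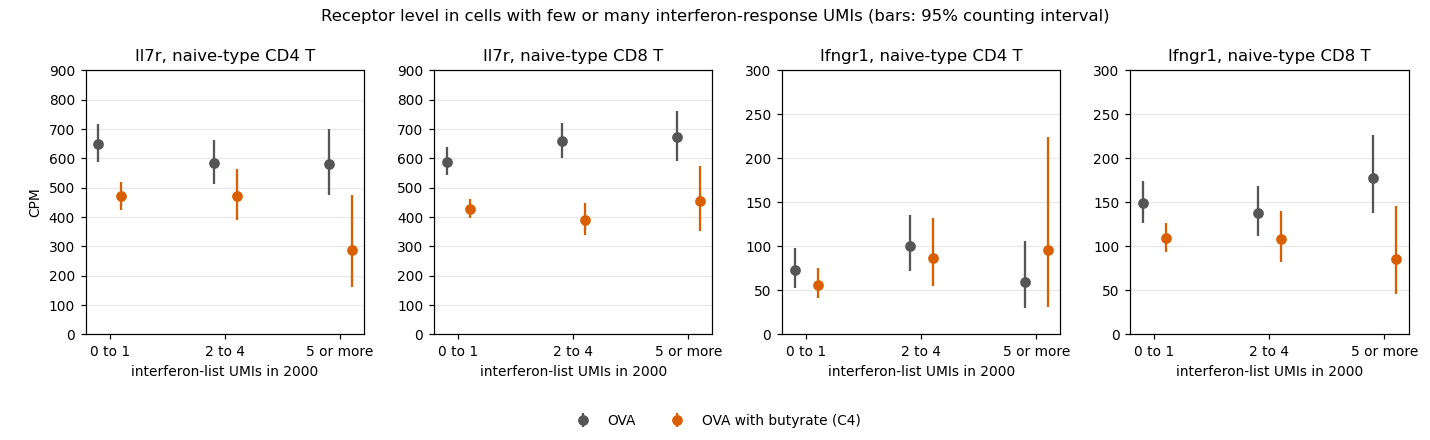
Level of Il7r and Ifngr1 (CPM) in naive-type CD4 and CD8 T cells thinned to 2000 UMIs, by the number of interferon-response UMIs in the cell, with 95% counting intervals, grey for the OVA and orange for the butyrate library. Il7r is lower with butyrate in all 6 pairs of points, and Ifngr1 in 5 of 6.

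Across 12 points, 6 classes of cells in each library, some receptors had like profiles on the scale of log2(CPM + 10). The points share library and depth, so these correlations are descriptions. B cells were among the 6 classes and had Il7r, Il6ra and Il6st under 10 CPM. A high r between these genes can thus restate the difference between B and T cells, and r over T cell classes alone was not computed. Pearson's r was 0.94 between Il6ra and Il6st, 0.93 between Il6st and Il7r, 0.92 between Ifngr1 and Il2rb, and 0.65 between Ifnar1 and Ifnar2, while Il21r had negative r with each of the other 8 receptors compared. Among 4933 genes with a mean of at least 20 CPM, the profile most like that of Il7r was Emb (r = 0.996), followed by Ms4a4b and Atp11b. It was Map7d1 for Il2rb (0.976), Nbeal1 for Il21r (0.942), Faah for Il6ra (0.968), Bcl11b for Il6st (0.977) and Rasal3 for Il27ra (0.961). Efhd2 was most like Ifngr1 (0.972), 3110040N11Rik most like Ifnar1 (0.974) and Ppp1r9b most like Ifnar2 (0.952). Il10ra was under 20 CPM and was not compared.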

How the data were processed

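Total cells of MedLNs from 4 pooled mice per condition were captured with the 10x Genomics 3′ kit. By the submitters' processing notes, the authors used Cell Ranger 6.0.1 and mm10, and they deposited the resulting UMI counts, raw and per cell. Here a cell was dropped if its mitochondrial share was above 10% or it had fewer than 200 genes (186 cells of the OVA and 327 of the butyrate library). Presumed doublets, ranked by Scrublet in scanpy 1.11.5 and taken as 0.8% for every 1000 cells, were dropped next (721 and 592). The deposited libraries held 9681 and 8932 cells and 59176459 and 58381292 UMIs.

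Naive-type cells were Foxp3- CD4 T or CD8 T cells with Ccr7 and without S100a4 or Cxcr3 UMIs. Resting B cells had Ighd and no Mki67. Ratios used summed UMIs, with exact intervals (scipy 1.17.1) at 95%, and genes with a mean of at least 10 CPM. The ratio and its interval were checked on simulated Poisson counts, which hold no spread between cells or mice. Members, lists and rules were chosen with earlier results of these data known. All 10 receptors are named, and of the other lists the genes past 1.3-fold in a main class with an interval that leaves out 0, at most 6 per list. Other genes and values outside this rule were chosen after their values were seen. Positions are from GENCODE M21, on the same build. The alternatives were no doublet removal, 5% mitochondrial UMIs, 500 genes, looser and stricter gates, 2 other scalings, thinning, pseudocounts of 1 and 10 CPM, no minimum level and naive-type or resting cells alone. Looser gates asked for 1 UMI where the main gates asked for 2. Like the stricter gates, they allowed no UMI of a gene where the main gates allowed at most 1, so they were not looser in every term. A gene of the pathway lists is not reported here.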

Additional observations from a re-analysis of the deposited data

Results flagged for a closer look

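The ratio of Ifngr1 between the libraries had opposite signs in B and T cells, with intervals on either side of 0: 0.21 (0.10 to 0.33) in B cells against -0.35 (-0.51 to -0.18) in CD4 T and -0.30 (-0.40 to -0.21) in CD8 T cells. The B cell levels were 52.8 and 61.1 CPM, and the median ratio of all genes tested was 0.05 in B cells. The ratio kept its sign in all 12 alternatives in each of the main classes. With 1 library per condition the difference between the lineages was not tested.

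Il2rb likewise was higher with butyrate in CD4 T cells, by 0.29 (0.10 to 0.48), and lower in CD8 T cells, by -0.11 (-0.22 to -0.00). That difference was not tested either. Among naive-type cells alone both ratios were below 0, at -0.22 in CD4 T and -0.24 in CD8 T cells.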

How the results depend on the processing

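Of 360 recomputed ratios, 342 stayed inside the counting interval of the value reported. Il2rb in CD4 T cells changed sign among naive-type cells (-0.22), and so did Ifngr1 in naive-type CD4 T cells with 5 or more interferon-response UMIs (0.70). Other exceptions were Il7r in CD4 T cells under stricter gates, at -0.01, and Il7r in B cells, which was 0.12 (-0.33 to 0.56). The latter was below 0 in 4 of 12 alternatives: -0.60 (-1.13 to -0.09) among Ighd+ resting B cells, -0.59 with looser gates, -0.44 without doublet removal and -0.36 after thinning. In CD4 T cells Ifnar2 reached -0.55 and Il6st 0.52, each past 1.3-fold in 1 of 12 alternatives. Il21r in CD8 T cells reached 0.32. Wider ranges were found for receptors under 10 CPM in the class. Il10ra in CD8 T cells, at -0.32 (-0.81 to 0.17), ran from -1.735 to 0.12. Il2rb in B cells, at 0.40 (-0.28 to 1.08), ran from -0.19 to 0.85 and was past 1.3-fold in 4 of 12 alternatives. Counts of receptors past 1.3-fold became 1 in these cases: higher in B cells with at most 5% mitochondrial UMIs or no minimum level, lower in B cells with looser gates, lower and higher in CD4 T cells with stricter gates, and lower in CD8 T cells after thinning. Among naive-type cells alone 2 receptors, Il7r and Ifngr1, were lower in CD4 T and 2 in CD8 T cells. Receptors lower in Foxp3+ cells numbered 2 under stricter gates and 0 after thinning. The share of all genes called under each alternative is not given here, so these counts are a description only. The cause of these changes was not tested.

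No paired analysis was possible because each condition has 1 library. Leaving out a replicate was likewise not possible. Differences between the pools of mice, their handling and their sequencing cannot be told apart from that of butyrate, and fewer transcripts in all cells of a class cannot be told apart from a change in which cells the gate holds.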
